A study of Mus musculus with 8 samples.

Results

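Perineuronal nets are sheets of extracellular matrix that enwrap the cell body and proximal dendrites of certain neurons, above all the fast-spiking interneurons of the cortex that contain parvalbumin. In a net, long hyaluronan chains made by hyaluronan synthases are bound by lecticans, which are chondroitin sulfate proteoglycans, link proteins fasten the lecticans to hyaluronan, and tenascin-R cross-links the lecticans at their other end. The genes described here were chosen by symbol, from the known makeup of nets, and number 8 of the 54752 genes in the count tables. Earlier results of these data were known when these genes and the gene lists below were chosen. The net genes are the lecticans Acan, Bcan and Ncan, the link proteins Hapln1, Hapln2 and Hapln4, the tenascin Tnr and the hyaluronan synthase Has3. In the cortex, Acan and Hapln4 are known mainly from neurons, Bcan and Ncan from astrocytes and neurons, Hapln2 from myelinating oligodendrocytes, and Tnr from cells of the oligodendrocyte lineage and some interneurons.

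RNA of the right cerebral cortex was sequenced 3 weeks after surgery in 8 mice, 4 sham and 4 BCAS, each in a library of its own. All 8 animals were adult wild-type male C57BL/6 mice, of the J substrain by the study's methods. In bilateral carotid artery stenosis (BCAS), which lowers cerebral blood flow, a microcoil was placed on each common carotid artery, with the narrower coil on the right, so that the sampled cortex lies on the side of the tighter stenosis. The sham mice had the arteries exposed without coils. Libraries were made from bulk tissue, and in such samples fewer cells of a type and less RNA per cell cannot be told apart.

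The libraries held 16759364 to 21794435 counts on genes. Levels are given as CPM, which are counts relative to the scaled library total, or divided further by exon length as RPKM where genes are compared with each other. In the library with the fewest counts, a gene with 0 counts may still have a level of up to 0.187 CPM, by counting error alone. Of the 17136 genes with enough counts to be tested, edgeR's quasi-likelihood test called 32.0% at a Benjamini-Hochberg adjusted p under 0.05, 19.2% of the tested genes being higher and 12.8% lower in BCAS mice. The 8 net genes all passed the filter on low counts. In the marker lists, 12 of 12 microglia and macrophage, 10 of 10 reactive astrocyte and 8 of 8 fibroblast and meningeal genes rose, of which limma-voom called 12, 8 and 7. With at least 10 counts required in every library, edgeR called 11, 9 and 8. Of 10 blood-borne leukocyte genes only 4 had enough counts to be tested, so that no count of calls is given for them, and their summed level was 3.02 to 6.36 CPM in sham and 8.396 to 113.9 CPM in BCAS mice. By edgeR, DESeq2 and limma none of 8 choroid plexus genes was called, with 2 lower at an unadjusted p under 0.05, but their summed level was 1344 CPM in sham mouse 3 against 254.8 to 336.7 CPM in the other mice. Of 8 striatal genes 1 was called higher, with summed levels of 379.9 to 677 CPM in sham and 520.6 to 1064 CPM in BCAS mice.

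Before the comparison, the order of the net genes in the sham cortex was examined on the RPKM scale. Bcan was the most abundant at 64.4 ± 3.67 RPKM (SD, n = 4), followed by Hapln4 at 41.0 ± 9.77, Ncan at 35.7 ± 1.76 and Tnr at 18.8 ± 0.236 RPKM. Hapln2 at 10.1 ± 2.08 and Hapln1 at 5.28 ± 0.496 RPKM were lower. Acan, the core lectican of the net, and Has3 stood last at 0.626 ± 0.221 and 0.568 ± 0.144 RPKM, so that Acan rested on only 50 to 108 counts per sham library. Neighbours in this order had separate ranges over the 4 mice, except Hapln4 with Ncan and Acan with Has3, whose ranges overlapped. In the BCAS mice Hapln4 moved behind Ncan, with means of 18.8 and 32.7 RPKM and separate ranges, and its range overlapped that of Tnr, at 15.9 RPKM.

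Lectican and link protein genes lie in 4 neighbouring pairs with no annotated gene between them, on the mm10 build with GENCODE models. Ncan (ENSMUSG00000002341.8, chromosome 8, 70093085 to 70120873, minus strand) and Hapln4 (ENSMUSG00000007594.10, chromosome 8, 70083457 to 70090862, plus strand) lie tail to tail, 2222 bases apart. Bcan (ENSMUSG00000004892.13, chromosome 3, 87987531 to 88000230) and Hapln2 (ENSMUSG00000004894.10, chromosome 3, 88021750 to 88027583) are both on the minus strand, 21519 bases apart. Acan (ENSMUSG00000030607.7, chromosome 7, 79053483 to 79115099, plus strand) ends 2 bases from Hapln3, and Hapln1 (ENSMUSG00000021613.9, chromosome 13, 89539796 to 89611652, plus strand) lies 43659 bases from Vcan. Tnr (ENSMUSG00000015829.13, chromosome 1, 159523769 to 159931729, plus strand) and Has3 (ENSMUSG00000031910.14, chromosome 8, 106870242 to 106884566, plus strand) stand outside these pairs. The counts were made without regard to strand, and 3.44% of the exon bases of Tnr and 5.52% of those of Has3 are shared with a gene on the opposite strand, so these genes are measured less surely.

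The promoter of Tnr is shown because Tnr was called in the comparison below, and those of Bcan and Hapln2 because these neighbours are read in the same direction. Each line holds the 250 bases before the RefSeq start on GRCm38.p6, 5′ to 3′ on the gene's strand, with motif matches in capitals. The windows are chr1:159523519-159523768 on the plus strand for Tnr, chr3:88000357-88000606 on the minus strand for Bcan and chr3:88027512-88027761 on the minus strand for Hapln2.
Tnr: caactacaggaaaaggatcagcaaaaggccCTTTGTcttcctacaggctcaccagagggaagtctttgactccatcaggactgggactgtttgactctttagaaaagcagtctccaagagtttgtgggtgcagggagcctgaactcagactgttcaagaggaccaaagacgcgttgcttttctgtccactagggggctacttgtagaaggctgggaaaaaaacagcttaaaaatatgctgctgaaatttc
Bcan: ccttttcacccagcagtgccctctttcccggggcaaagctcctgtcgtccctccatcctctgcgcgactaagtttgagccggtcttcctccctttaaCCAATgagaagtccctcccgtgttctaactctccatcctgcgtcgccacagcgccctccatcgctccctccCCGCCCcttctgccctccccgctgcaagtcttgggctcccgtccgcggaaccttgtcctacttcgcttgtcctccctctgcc
Hapln2: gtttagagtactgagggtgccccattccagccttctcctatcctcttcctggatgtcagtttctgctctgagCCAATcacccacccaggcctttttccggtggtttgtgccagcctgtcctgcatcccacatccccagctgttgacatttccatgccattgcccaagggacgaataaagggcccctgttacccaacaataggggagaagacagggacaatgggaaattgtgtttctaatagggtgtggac
The capitals mark 1 ACAAAG, read on the minus strand, in Tnr, 1 CCAAT and 1 GGGCGG, the latter on the minus strand, in Bcan, and 1 CCAAT in Hapln2. RefSeq entries were found for 6 of the 8 genes. Over 32851 promoters of the same length, on either strand, ACAAAG (a core of SOX factor sites) occurred in 16.5%, CCAAT in 33.8% and GGGCGG (the GC box) in 32.7%. The TATA box (TATAAA) was found in 12.4% of promoters, the E-box (CACGTG) in 6.02% and the AP-1 site (TGANTCA) in 6.75%, and none of them had a match in these 3 windows. The Bcan window held 16 CpG dinucleotides, against 2 each in Tnr and Hapln2 and a median of 6 over all promoters. The RefSeq starts of Bcan and Hapln2 differ from the GENCODE ones above, and the Hapln2 window reaches into the GENCODE model. These matches describe the letters only.

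After BCAS-hypoperfusion, 2 of the 8 net genes, Hapln4 and Tnr, were lower at an adjusted p under 0.05, and none was higher (edgeR's quasi-likelihood test, adjusted over all tested genes). Among all tested genes, 12.8% were called lower, a share that was 2.37%, 2.95%, 8.21% and 3.09% without sham mouse 1, 2, 3 or 4, 4.19% and 4.03% without BCAS mouse 3 or 4 and 20.9% without BCAS mouse 2. DESeq2 and limma likewise called 2 of the 8 lower and none higher, and at an unadjusted p under 0.05 there were also 2 lower and none higher. Past the study's additional threshold of an absolute log2 fold change above 1, only Hapln4 remained of the 8, beside 1.28% of all tested genes called lower. The same 2 genes had CPM values that did not overlap between the groups, whereas 34.8% of all tested genes did not overlap in either direction. The median log2 fold change was -0.18 over the 8 net genes and -0.01 over all tested genes.

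**Figure D1:**
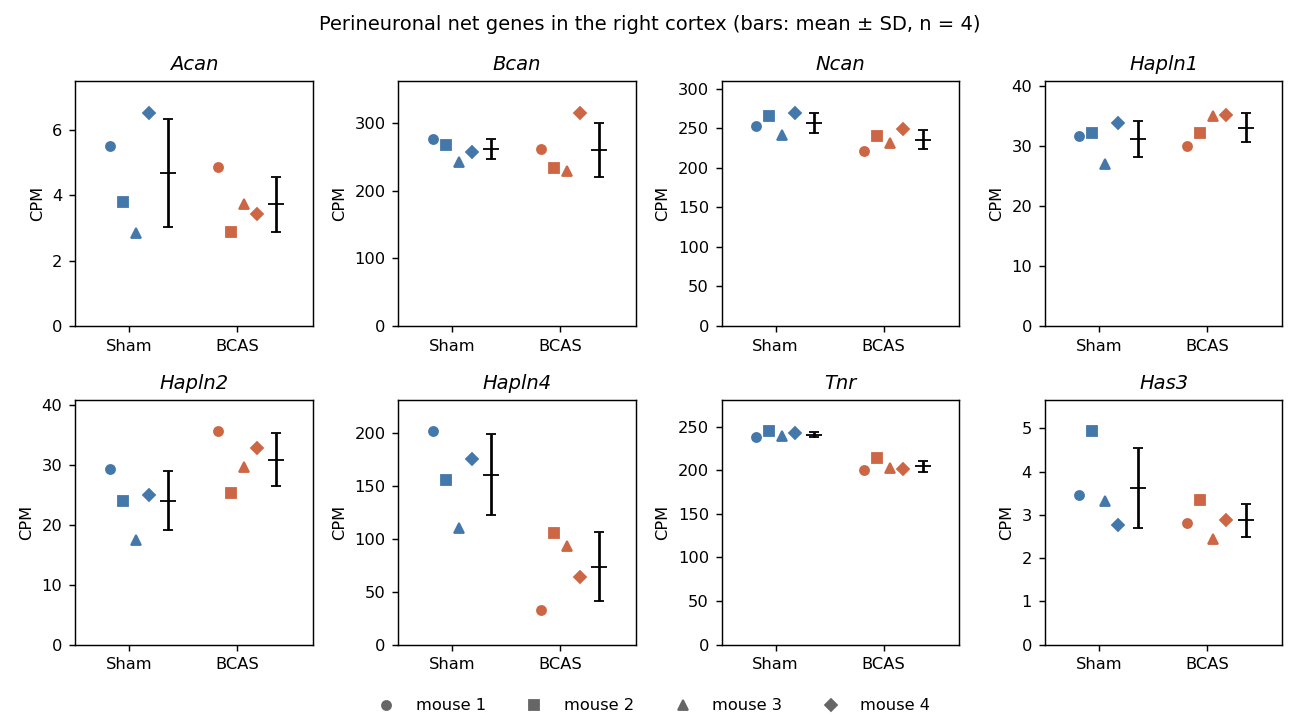
CPM of the 8 net genes in each mouse, with sham mice in blue and BCAS mice in orange, a marker shape for each mouse number, and the mean ± SD of 4 mice beside the points. Every axis starts at 0, and the groups are separate for Hapln4 (lowest sham 110.6 CPM, highest BCAS 105.5 CPM) and Tnr and overlap for the other 6 genes.

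Hapln4 encodes a link protein that fastens lecticans, brevican among them, to hyaluronan around neurons. Its level was 201.6, 155.9, 110.6 and 175.2 CPM in sham mice 1 to 4 and 32.8, 105.5, 92.7 and 63.9 CPM in BCAS mice 1 to 4. Sham mouse 3 was the lowest of its group and BCAS mouse 2 the highest of the other, and the groups did not overlap by a narrow margin. The mean fell from 160.8 ± 38.3 to 73.7 ± 32.4 CPM (SD, n = 4), a 2.18-fold lower level with a log2 fold change of -1.13 ± 0.33 (SE), a 95% interval of -1.87 to -0.38 and an adjusted p of 0.0322. Relative to the sham mean, BCAS mice 1 to 4 retained 20.4%, 65.6%, 57.7% and 39.7%. The adjusted p was 0.0871, 0.0714 and 0.0771 without sham mouse 1, 2 or 4 and 0.0535 and 0.0814 without BCAS mouse 3 or 4, and 0.0373 without sham mouse 3, the mouse with the high choroid plexus genes. The log2 fold change stayed between -1.34 and -0.87 over the 8 fits that each left out 1 mouse.

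Tnr, or tenascin-R, is the trimeric glycoprotein that ties lecticans together in the net. Tnr stood at 238.0, 244.8, 239.6 and 242.7 CPM in sham mice 1 to 4 and at 200.6, 214.1, 203.2 and 201.9 CPM in BCAS mice 1 to 4. All 4 BCAS mice lay below all 4 sham mice, and the spread within each group was small, with a coefficient of variation of 1.26% in sham and 3.01% in BCAS mice. The mean fell from 241.3 ± 3.03 to 204.9 ± 6.18 CPM (SD, n = 4), with a log2 fold change of -0.24 ± 0.07 (SE), a 95% interval of -0.39 to -0.08 and an adjusted p of 0.0338. The adjusted p was between 0.0579 and 0.0902 without any single sham mouse or without BCAS mouse 3 or 4. It was 0.124, with a log2 fold change of -0.15, when libraries were scaled by their size alone, and 0.110 without the filter on low counts.

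For the 3 lecticans among the net genes, Acan, Bcan and Ncan, no difference between the groups passed the test. Aggrecan, encoded by Acan, is the lectican most often used to mark nets. Acan was at 5.51, 3.81, 2.86 and 6.52 CPM in sham mice 1 to 4 and at 4.88, 2.88, 3.73 and 3.43 CPM in BCAS mice 1 to 4. The values were mixed between the groups, and the log2 fold change was -0.32 with a 95% interval of -0.97 to 0.32 (adjusted p = 0.401), which includes changes as large as a decrease of 0.97 on the log2 scale.

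Bcan encodes brevican, the most abundant lectican here. Bcan was at 277.5, 268.1, 242.6 and 258.3 CPM in sham mice and at 262.8, 233.9, 229.6 and 315.4 CPM in BCAS mice 1 to 4. BCAS mice 2 and 3 were below every sham mouse and BCAS mouse 4 above every sham mouse. The means were 261.6 ± 14.9 and 260.4 ± 39.5 CPM (SD, n = 4), and the log2 fold change was -0.01 with a 95% interval of -0.27 to 0.26 (adjusted p = 0.969). Its sign turned under other settings, with 0.087 when libraries were scaled by their size alone and 0.012 when at least 10 counts were required in every library.

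Ncan encodes neurocan, a lectican that is cleaved as the cortex matures. Ncan was at 252.8, 264.8, 240.9 and 269.1 CPM in sham mice and at 220.7, 239.8, 231.1 and 249.2 CPM in BCAS mice 1 to 4. BCAS mice 1 to 3 were below the lowest sham mouse and BCAS mouse 4 was within the sham range. The log2 fold change was -0.13 with a 95% interval of -0.31 to 0.06 (adjusted p = 0.245), an interval narrower than that of Acan.

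The remaining link proteins and the synthase were not called either. Hapln1, the link protein that knockout work ties to normal net assembly, was at 27.0 to 33.9 CPM in sham and 29.9 to 35.1 CPM in BCAS mice, and its log2 fold change was 0.08 with a 95% interval of -0.14 to 0.31 (adjusted p = 0.531). Hapln2, the link protein of nodes of Ranvier in myelinated axons, was at 29.4, 24.1, 17.5 and 25.1 CPM in sham mice 1 to 4 and at 35.7, 25.3, 29.8 and 32.9 CPM in BCAS mice 1 to 4. BCAS mouse 2 lay within the sham range and the other BCAS mice above it. Its log2 fold change was 0.36 with a 95% interval of -0.01 to 0.74 (adjusted p = 0.118), and the adjusted p was 0.0364 without BCAS mouse 2, the only net gene to gain a call in this way. Has3, whose product makes hyaluronan at the cell surface, was at 2.78 to 4.93 CPM in sham and 2.43 to 3.35 CPM in BCAS mice, and its log2 fold change was -0.33 with a 95% interval of -0.84 to 0.17 (adjusted p = 0.269).

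The composition of the link protein family differed in every mouse of the BCAS group. Hapln4 supplied 73.8%, 71.2%, 69.3% and 72.7% of the summed RPKM of Hapln1 to Hapln4 in sham mice 1 to 4. In BCAS mice 1 to 4 it supplied 28.8%, 61.7%, 55.7% and 44.3%, so that all 4 were below all sham mice and BCAS mouse 1 was the lowest. The mean share went from 71.8% ± 1.96 to 47.6% ± 14.5 (SD, n = 4), which gave the smallest p that 70 arrangements of 8 mice allow (exact two-sided permutation test, p = 0.0286, and 0.0571 after Benjamini-Hochberg adjustment over 8 shares). The shares of a family add up to a fixed sum, and that of Hapln2 went from 17.9% to 35.9% and that of Hapln1 from 9.51% to 15.0% with the same p. The family summed to 56.9 ± 12.2 RPKM in sham and 38.0 ± 6.63 RPKM in BCAS mice, with sham mouse 3 (40.7 RPKM) below BCAS mice 2 and 3 (43.6 and 42.4 RPKM).

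In the lectican family, the summed RPKM overlapped between the groups, at 95.02 to 105.6 in sham and 91.8 to 115.0 in BCAS mice. Bcan supplied 62.9% ± 1.39 and 63.8% ± 2.82 and Ncan 34.9% and 32.9% of it (SD, n = 4), with overlapping ranges. Acan supplied 0.607% in sham and 0.503% in BCAS mice. Only the share of Vcan, or versican, did not overlap between the groups, at 1.64% in sham and 2.78% in BCAS mice (exact two-sided permutation test, p = 0.0286, adjusted p = 0.0571).

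**Figure D2:**
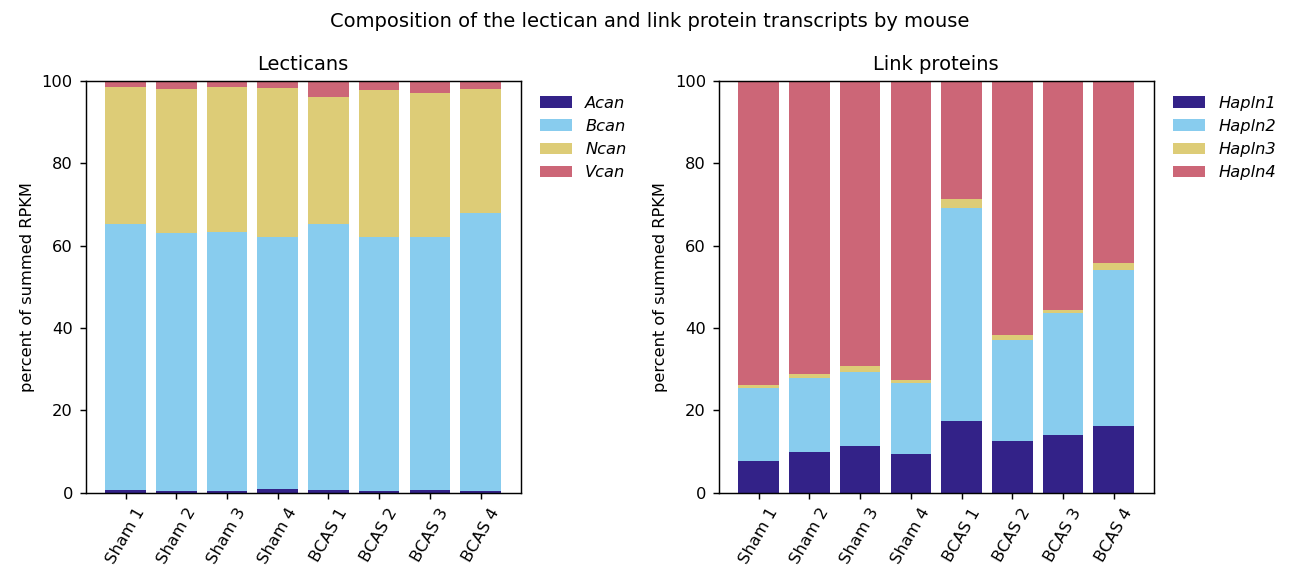
Percent of the summed RPKM of each family that each gene supplied, 1 bar per mouse, with lecticans on the left and link proteins on the right. Hapln4 takes 69.3% to 73.8% of the link proteins in the sham mice and 28.8% to 61.7% in the BCAS mice, whereas Bcan and Ncan fill most of the lectican bars in both groups.

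Of the 8 partner genes of the same matrix, 5 rose, Has2 among them, and none fell, with a median log2 fold change of 0.53. Among all tested genes 19.2% were higher and 12.8% lower. With at least 10 counts required in every library, 4 partner genes were called. Vcan, a lectican of looser matrix and of oligodendrocyte precursors, was at 20.9, 28.0, 21.3 and 27.1 CPM in sham mice and at 57.5, 29.1, 39.0 and 33.8 CPM in BCAS mice 1 to 4. The groups were just separate at sham mouse 2 and BCAS mouse 2, with a log2 fold change of 0.71 ± 0.21 (SE, adjusted p = 0.0320). Cspg4, or NG2, a proteoglycan of oligodendrocyte precursors and pericytes, rose by 1.25 ± 0.19 (adjusted p = 0.00331) and was separate between the groups. Has2, another synthase, had 7, 7, 11 and 8 counts in sham mice and 55, 19, 27 and 17 counts in BCAS mice 1 to 4. Has2 passed the filter on low counts only through the BCAS libraries. Its log2 fold change of 1.57 ± 0.39 is therefore given as a description. Tnc, or tenascin-C, the relative of Tnr found in developing and injured tissue, had a log2 fold change of 0.92 ± 0.28 (adjusted p = 0.0372) with overlapping groups, and Ptprz1, whose splice form phosphacan binds tenascins, one of 0.35 ± 0.11 (adjusted p = 0.0374). Hapln3 (0.20, adjusted p = 0.585), Has1 (0.19, adjusted p = 0.728) and Cspg5 (-0.20, adjusted p = 0.179) were not called. Only 1 of the 8 was called without sham mouse 1, 2 or 4, and 3 without sham mouse 3 or BCAS mouse 3.

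**Figure D3:**
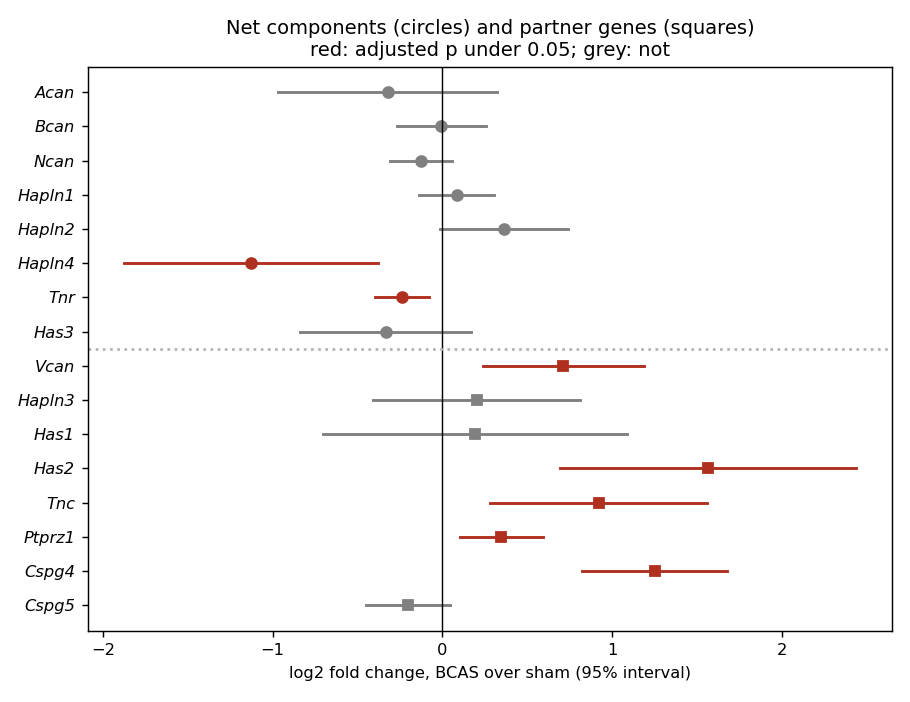
Log2 fold change of BCAS over sham with its 95% interval for the 8 net genes (circles, above the dotted line) and 8 partner genes (squares, below it), in red where the adjusted p was under 0.05. Hapln4 and Tnr lie left of 0, while Vcan, Has2, Tnc, Ptprz1 and Cspg4 lie right of it. Has2 passed the filter on low counts only through the BCAS libraries.

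Among the hyaluronan synthases, Has3 supplied 58.0% ± 7.13 of the summed RPKM in sham mice and 40.0% ± 5.83 in BCAS mice, and Has2 supplied 12.3% ± 4.05 and 30.0% ± 12.6 (SD, n = 4). The sum was low in both groups, at 0.981 and 1.13 RPKM.

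Of 23 tested genes that assemble the chondroitin sulfate chains of the lecticans, 5 rose, 5 fell and 13 were not called, with a median log2 fold change of 0.05. Among all tested genes 19.2% rose and 12.8% fell, so that the number of increases lay near the background. The largest decreases were those of the chain polymerase gene Chsy3 (-0.81 ± 0.24, SE, adjusted p = 0.0330), of B3gat3, which completes the linker to the core protein (-0.52 ± 0.13, adjusted p = 0.0192), and of the polymerizing factor Chpf (-0.36 ± 0.11, adjusted p = 0.0399). The largest increases were those of Chst14 (1.81 ± 0.41, adjusted p = 0.0136) and Dse (1.62 ± 0.34, adjusted p = 0.0104), which both act in making dermatan sulfate, and of the polymerase gene Chsy1 (0.74 ± 0.20, adjusted p = 0.0257). The number called was 2 without sham mouse 1 or 4, 3 without sham mouse 2, 6 without sham mouse 3, and 4 and 5 without BCAS mouse 3 or 4.

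Genes for the binding and breakdown of hyaluronan mostly rose. Of 14 tested, 11 rose and none fell, with a median log2 fold change of 1.28, beside 19.2% higher and 12.8% lower among all tested genes. Cd44, the hyaluronan receptor, rose by 4.21 ± 0.49 (SE, adjusted p = 0.00184), and the lysosomal enzyme gene Gusb by 3.34 ± 0.37 (adjusted p = 0.00163). The number called was 5 without sham mouse 1, 6 without sham mouse 2 or 3 and 7 without sham mouse 4 or BCAS mouse 3.

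Of 17 genes for proteases that cleave lecticans and for their inhibitors, 11 rose and 1 fell, with a median log2 fold change of 0.90. Among all tested genes 19.2% were higher and 12.8% lower. With at least 10 counts required in every library, 10 genes of the list were called. Mmp3, or stromelysin, had 0 counts in all 4 sham mice and 748, 76, 518 and 203 counts in BCAS mice 1 to 4, at least 106.8-fold higher against a floor of 3 counts per sham library. The inhibitor gene Timp1 had a log2 fold change of 3.85 ± 0.71 (SE). Both Mmp3 and Timp1 passed the filter on low counts only through the BCAS libraries, so their values are given as a description. The cathepsin gene Ctss rose by 4.28 ± 0.42 (SE, adjusted p = 0.00146). Adamts8, of the family that holds the lectican-cleaving aggrecanases, fell by 0.84 ± 0.27 on the log2 scale (adjusted p = 0.0410), and this call was lost without sham mouse 1, 2 or 4 or without BCAS mouse 1, 3 or 4 (adjusted p between 0.0810 and 0.104).

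Of 12 genes for chondroitin sulfate receptors and net-bound factors, 2 rose and 4 fell, with a median log2 fold change of -0.37, beside 19.2% higher and 12.8% lower among all tested genes. Nptx2, a neuronal pentraxin that gathers glutamate receptors at synapses on parvalbumin neurons, fell by 1.09 ± 0.23 on the log2 scale (SE, adjusted p = 0.0108). Rtn4rl2, of the Nogo receptor family, fell by 0.86 ± 0.23 (adjusted p = 0.0258), and Sema3a, a secreted guidance cue held in nets, fell by 0.57 ± 0.14 (adjusted p = 0.0195). The semaphorin co-receptor gene Nrp1 and the integrin gene Itgb1 rose by 1.45 ± 0.28 and 1.28 ± 0.24. The number called was 3 without sham mouse 2 or 4 or without BCAS mouse 4.

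Markers of the cells that make and bear nets were examined beside these genes. Pvalb, the gene of parvalbumin, was at 56.2, 33.3, 20.9 and 34.9 CPM in sham mice and at 7.12, 23.4, 21.7 and 10.9 CPM in BCAS mice 1 to 4. Sham mouse 3 was below BCAS mice 2 and 3, so that the groups overlapped, with a log2 fold change of -1.20 ± 0.41 (SE, adjusted p = 0.0495, and between 0.0173 and 0.135 over the fits that left out 1 mouse). Of 12 parvalbumin interneuron markers 8 fell and none rose (median log2 fold change -0.73), among them Syt2 (-1.15) and Kcns3 (-0.93). Among all tested genes 12.8% were lower and 19.2% higher. In the list, Tac1 (0.54, adjusted p = 0.392) and Cox6a2 (0.37, adjusted p = 0.179) had positive log2 fold changes, and Tac1 stood at 67.1 CPM in BCAS mouse 4. Their summed level was 1588 to 2380.5 CPM in sham and 903.4 to 1484 CPM in BCAS mice. None of the 12 was called without sham mouse 1, 2 or 4, and 1 and 2 were called without BCAS mouse 3 or 4. Scaling by library size alone left 3 calls.

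The marker counts that follow stand beside 12.8% lower and 19.2% higher among all tested genes. Pan-neuronal markers fell in 10 of 14 cases (median log2 fold change -0.70), with summed levels of 10774 to 12329 CPM in sham and 4189 to 9234 CPM in BCAS mice. Snap25, Nefm and Rbfox3 fell by 1.07, 0.96 and 0.91 on the log2 scale. The number called was 1 without sham mouse 1 or 4, 2 without sham mouse 2 or BCAS mouse 3 or 4 and 5 without sham mouse 3 or under library size alone. Of 12 astrocyte identity markers 7 rose (median 0.39, Aqp4 by 1.65, Gja1 by 0.61 and Aldh1l1 by 0.52), with 7176 to 8680 CPM in sham and 8298 to 10175 CPM in BCAS mice, and 2 were called without sham mouse 2, 3 or 4 or BCAS mouse 3 or 4 and 4 without sham mouse 1. Of 10 oligodendrocyte precursor markers 3 rose (median 0.36, Matn4 by 1.16, Gpr17 by 0.59 and Pdgfra by 0.51), with 426.2 to 475 CPM in sham and 491 to 691 CPM in BCAS mice, and 1 was called without sham mouse 1, 2 or 4 and 6 without BCAS mouse 2. None of 12 oligodendrocyte markers was called by edgeR (median 0.18, with 1 higher at an unadjusted p under 0.05 and 1 called by DESeq2, and edgeR called 3 without BCAS mouse 2 and 1 without sham mouse 3 or under library size alone), with 4165 to 6667 CPM in sham and 5787 to 8853 CPM in BCAS mice. The part of these markers in the results for the net genes was not tested.

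BCAS mouse 1 lay farthest from the sham mean and BCAS mouse 2 nearest to it in several measures. Relative to the sham mean, log2 CPM of Hapln4 differed by -2.25, -0.57, -0.76 and -1.30 in BCAS mice 1 to 4, and the mean over the parvalbumin interneuron list by -1.19, -0.34, -0.59 and -0.45. The pan-neuronal list differed by -1.40, -0.28, -0.62 and -0.65. BCAS mouse 1 was the lowest and BCAS mouse 2 the nearest to sham in all 3 measures. The same mice were the extremes of lists that rose, at 4.71 and 2.56 for the microglia and macrophage list, 4.61 and 1.87 for the reactive astrocyte list, 3.01 and 0.85 for the fibroblast and meningeal list and 0.66 and 0.14 for the oligodendrocyte precursor list. In sham mouse 3, Hapln4 (-0.51) and the parvalbumin list (-0.31) were also low, whereas the pan-neuronal list (-0.08) was near the mean. Tnr differed by only -0.27, -0.17, -0.25 and -0.26 in BCAS mice 1 to 4.

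**Figure D4:**
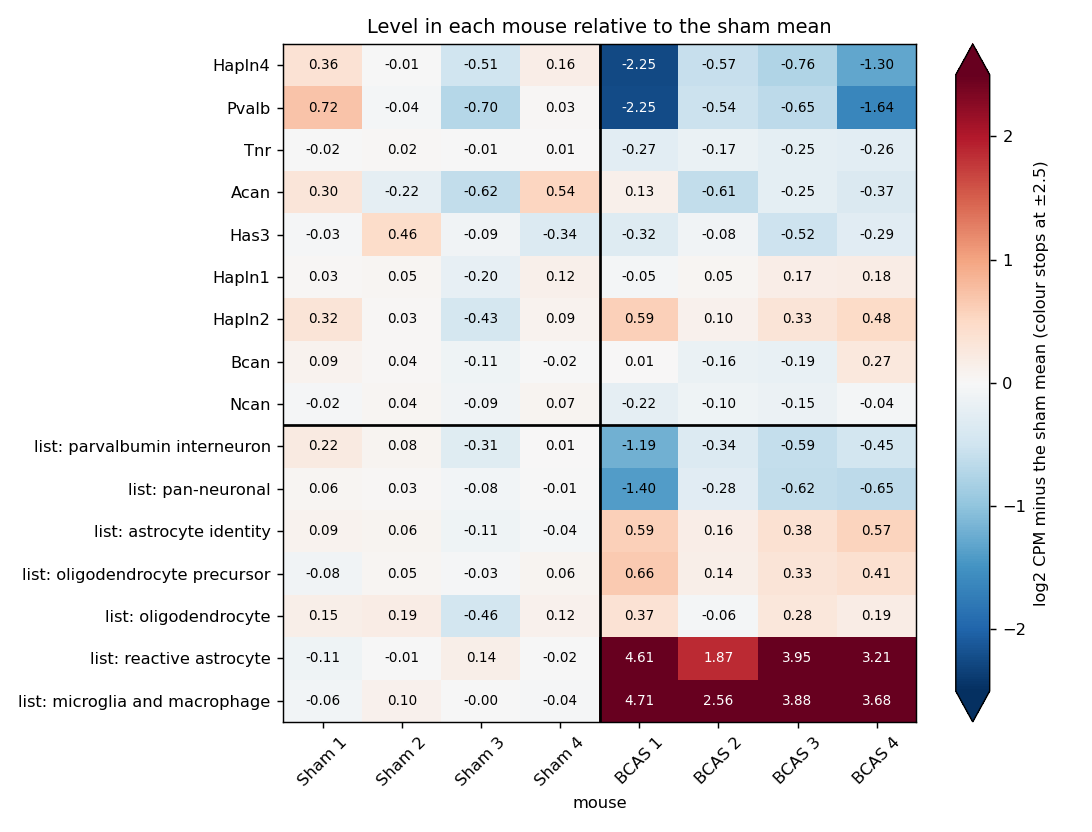
Log2 CPM of each net gene and Pvalb, and the mean log2 CPM of 7 marker lists, in each mouse minus the sham mean, with sham mice left and BCAS mice right of the vertical line and colours that stop at ±2.5. Hapln4 and Pvalb are lowest in BCAS mouse 1 (both -2.25), as are the parvalbumin and pan-neuronal lists, while the Tnr row holds values between -0.27 and 0.02.

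To compare each net gene with its main known source within a mouse, log2 ratios to the mean of a marker list were tested over the 8 mice. The ratio of Hapln4 to the parvalbumin list was 1.43, 1.21, 1.10 and 1.44 in sham and 0.24, 1.06, 1.13 and 0.45 in BCAS mice 1 to 4, which overlap, with a difference of -0.58 (exact two-sided permutation test, p = 0.0571, adjusted over 12 ratios p = 0.0857). Hapln1 over the same list was higher in all 4 BCAS mice, by 0.73 (exact p = 0.0286, adjusted p = 0.0571). Acan over the list differed by 0.37 (exact p = 0.40).

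Bcan and Ncan were lower relative to the astrocyte identity list in every BCAS mouse, by 0.44 and 0.55 on the log2 scale, and Tnr was lower relative to the oligodendrocyte precursor list by 0.62 (exact p = 0.0286 and adjusted p = 0.0571 for each). Hapln2 over the oligodendrocyte list differed by 0.18 (exact p = 0.0857), and Has3 over the pan-neuronal list by 0.44 (exact p = 0.171). None of the 12 ratios had an adjusted p under 0.05 over the 8 mice (exact permutation test), whose 70 arrangements allow no exact p below 0.0286. Without BCAS mouse 3, 7 ratios had an adjusted p of 0.0490. At the smallest exact p, the adjusted p depends only on how many ratios reach it. This drop therefore marks no stronger difference in each ratio.

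Neighbouring genes were compared in the same way. The log2 ratio of Ncan to Hapln4 was 0.33, 0.76, 1.12 and 0.62 in sham and 2.74, 1.18, 1.32 and 1.96 in BCAS mice 1 to 4, with no overlap and a difference of 1.09 (exact p = 0.0286, adjusted p = 0.0571). Vcan over Hapln1 differed by 0.59 with the same p. Bcan over Hapln2 (-0.39, exact p = 0.0571) and Acan over Hapln3 (-0.42, exact p = 0.286) overlapped between the groups.

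For each net gene, the 3 genes with the most similar profile over the 8 libraries were sought by Pearson's r of log2 CPM among the 12438 tested genes that averaged 100 counts or more. For Hapln4 these were Ubqln1 (0.995), Nrgn (0.995), a neuronal calmodulin-binding protein, and Cacng2 (0.994), an auxiliary subunit of AMPA receptors, and Pvalb reached 0.978. For Tnr they were Cd47 (0.985), Pex5 (0.983) and Uri1 (0.983). For Hapln2 they were Adssl1 (0.982), Phldb1 (0.978) and the myelin gene Mbp (0.973), and for Bcan Grin2c (0.980), Kazn (0.971) and Cbs (0.953). All points of such a profile share their library and its depth, and r describes these 8 libraries only.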

How the data were processed

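Each library held RNA of the right cortex of 1 mouse, and groups follow the sample labels. Per the labels and the study's methods, the authors trimmed the read pairs (Trim Galore), aligned them with HISAT2 to mm10, sorted them with SAMtools 1.9 and counted fragments on exons with featureCounts. They deposited raw counts per gene without normalization. The file headers name featureCounts 2.0.1 and GENCODE vM20 with no strand option and no option for reads on several genes, whereas the methods name version 1.6.3 and RefSeq. Multi-gene reads are thus left out, which lowers overlapping genes.

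Counts were analysed with edgeR 4.0.16 in R 4.3.3 (TMM scaling, filterByExpr with a minimum count of 10 and a minimum total of 15, quasi-likelihood F-test without covariates, Benjamini-Hochberg adjustment over 17136 tested genes). A gene was called at an adjusted p under 0.05. The standard error was derived from the log2 fold change and its F-statistic. CPM used TMM-scaled library sizes, RPKM the deposited exon length, and log2 CPM a prior count of 2. For single values, an exact two-sided permutation test took all 70 arrangements of the mice. Python 3.11.15 with matplotlib 3.10.9 drew the figures. The procedures were tested on simulated data. Replicates of a group differed beyond sampling noise, and no library was a copy of another. Of the 54752 gene identifiers, 54723 were named through GENCODE.

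The net genes and the 16 gene lists were chosen with earlier results of these data known. Genes named are the 8 net genes, their 8 partners, up to 3 genes with the largest increase and 3 with the largest decrease among the called genes of each other list, the 3 genes most like each net gene, and Pvalb, and 1 gene that this rule names is not reported here. As alternatives, libraries were scaled by the upper quartile, by DESeq2's size factors or by their size alone, the filter was set to at least 10 counts in every library or to none beyond 1 count in total, the test was replaced by limma-voom, limma 3.58.1 on log2(CPM + 1) or DESeq2 1.42.0, and further fits used a prior count of 0.5 for the ratios, the replicate number as a block, and leaving out each mouse.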

Additional observations from a re-analysis of the deposited data

Results flagged for a closer look

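Among 74 groups of 4 values examined, the level of the link protein gene Hapln3 in BCAS mouse 3, at 1.08 CPM, lay far from those of the other 3 BCAS mice, at 2.06 to 2.23 CPM. Its gap to the nearest of them was 0.85 of the range of the group, above Dixon's 95% critical value of 0.829 for 4 samples. The value rests on 20 counts, against 40 to 49 in the other BCAS mice. Chance flags about 1 in 20 such groups.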

How the results depend on the processing

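Of 176 values that answer a comparison, recomputed under settings other than leaving out a mouse, 163 counted as unchanged. For a tested difference this meant the same direction and the same side of the threshold. For a number of called genes it meant only a number within a set factor of the main one. Of the rest, 4 differences lost their call, 2 turned their sign and 7 numbers of called genes moved further. With the replicate number as a block, which pairs mice by number only, 3546 genes were called, Hapln4 had a log2 fold change of -1.21 (adjusted p = 0.0671) and Tnr -0.24 (adjusted p = 0.107), 0 of the 8 net genes were called by edgeR, and the lists of core matrix partners, chondroitin sulfate chain synthesis and hyaluronan turnover had 2, 3 and 5 calls, the parvalbumin, pan-neuronal and astrocyte lists 2, 4 and 4. Same-numbered mice did not deviate together (correlations of -0.05, -0.10, -0.01 and 0.00), so the numbers were not taken as pairs. Under library size alone and without the filter, 1 net gene was called, Tnr having a log2 fold change of -0.15 and -0.24, and Bcan turned to 0.087 under library size alone and to 0.012 when at least 10 counts were required in every library. Library size alone made 75.5% of the calls increases, against 59.9% with TMM, and leaving out sham mouse 1, 2 or 4 made it 83.6%, 80.9% and 80.0%.

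Leaving out each mouse gave 2549 to 8166 called genes, of which 1644 to 2967 passed the fold threshold, and 0 to 3 called net genes. The lists of core matrix partners, chain synthesis, hyaluronan turnover, and receptors and net-bound factors had 1 to 5, 2 to 15, 5 to 12, and 3 to 8 calls. The log2 fold change ranged from -1.34 to -0.87 for Hapln4, -0.25 to -0.21 for Tnr, -0.11 to 0.055 for Bcan, 0.23 to 0.47 for Hapln2 and, for Has1, -0.13 to 0.41. The difference in the share of Bcan among the lecticans ranged from -0.23 to 1.75 percentage points. Differences of log2 ratios ranged from 0.59 to 0.84 for Hapln1 and from -0.71 to -0.42 for Hapln4 over the parvalbumin list, from -0.49 to -0.39 for Bcan and from -0.65 to -0.47 for Ncan over the astrocyte list, from -0.72 to -0.52 for Tnr over the precursor list, from 0.78 to 1.30 for Ncan over Hapln4 and from 0.35 to 0.71 for Vcan over Hapln1. Without BCAS mouse 3 the adjusted exact p of these 7 ratios was 0.0490, a value set by how many ratios reached the smallest exact p. The causes of these shifts were not tested.

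The depth is low for Acan, Has3, Has1, Has2 and Hapln3, which had at most 111 counts in any library. With 4 mice a group, exact tests of single values cannot go below 0.0286, or below 0.125 when signs are flipped within numbered pairs.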

Other observations

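The genes most like the remaining net genes over the 8 libraries, by Pearson's r of log2 CPM, were Mpped2 (0.981), Hrh3 (0.978) and Mageh1 (0.977) for Ncan and Csnk1e (0.979), Pip4p2 (0.940) and Mxi1 (0.936) for Acan. For Hapln1 they were Stk19 (0.914), Ostm1 (0.907) and Rps21 (0.886), and for Has3 the closest was Zfp668 (0.955). Pvalb was less like Acan (0.281) and Hapln1 (0.0842) than like Hapln4 (0.978). These values describe these 8 libraries only, and all genes of a library share its depth and tissue makeup.

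Genes of stromal matrix rose as well. Of the fibroblast and meningeal list, the collagen gene Col3a1 rose by 4.40 ± 0.67 (log2, SE, adjusted p = 0.00347), Col1a1 by 3.27 ± 0.56 and Lum, the small proteoglycan lumican, by 3.13 ± 0.66, with summed levels of 105.9 to 129.9 CPM in sham and 205.4 to 1017 CPM in BCAS mice. Of the reactive astrocyte list, Lcn2, Serpina3n and Steap4 rose by 7.68, 4.76 and 4.57 on the log2 scale, and Itgax, Lyz2 and Cd68 of the microglia and macrophage list by 6.92, 6.26 and 4.83. Under limma-voom, Lum (adjusted p = 0.081), Lcn2 (0.211) and Steap4 (0.126) were not called. In the leukocyte list, where 4 of 10 genes had enough counts to be tested, Ly6c2 had 0 to 3 counts in sham and 14 to 464 counts in BCAS mice, Cd8a 0 to 3 and 14 to 273, and Ccr2 6 to 21 and 39 to 922, given as a description. In the striatal list Adora2a rose by 0.99 (adjusted p = 0.0460), and this call was lost in 6 of the 8 fits that left out 1 mouse.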
